A study of Arabidopsis thaliana with 24 samples.

Results

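Dark-grown pifq seedlings of Arabidopsis thaliana that had been moved to abscisic acid (ABA) were compared with dark-grown pifq seedlings moved to the ethanol mock, across all genes. The comparison took the 3 libraries labelled pifq, dark and ABA and the 3 labelled pifq and dark with no ABA. These 6 of the 24 libraries of the series were picked by their labels. The comparison itself was chosen with earlier results of these data known. Of the 32833 genes in the table, 20828 had enough counts to be tested. The series crossed genotype (WT or pifq, both in the accession Columbia-0), light and ABA, with 3 biological replicates in each of 8 groups, and measured polyadenylated RNA of seedlings. The dark seedlings of both genotypes were stratified for 2 days, given 2 h of light, kept in darkness for 62 h, moved on a nylon mesh to medium with ABA or ethanol and kept in darkness for 4 more days. The light-grown pifq seedlings used below grew in light/dark cycles with white light at 10 µmol m-2 s-1, were moved after 72 h and stayed on ABA or mock for 5 days. All groups grew at 22 °C on medium with sucrose; these times are the labels' general protocol, which allows for exceptions not given for single samples. The sources used here give neither the ABA concentration nor the alleles of the mutant, and pifq is a single mutant line.

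The pifq line is mutated in PIF1, PIF3, PIF4 and PIF5, basic helix-loop-helix factors that build up in darkness, hold back seedling greening and drive hypocotyl elongation, so pifq seedlings are short and partly light-like in the dark. ABA is the hormone of water stress and seed dormancy. It binds PYR1 and PYL receptors, which then block the clade A protein phosphatases (PP2Cs); this frees SnRK2 kinases to activate ABF and ABI5 transcription factors, and in seedlings the hormone inhibits germination, growth and greening. The title of the series places the question in the hypocotyl: how far PIFs and the auxin-induced SAUR genes protect its elongation from ABA in the dark.

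The 6 libraries held 14827266 to 16436649 counts each, so that 1 count was at most 0.0674 CPM, the unit of counts scaled to library size. Levels below are CPM after TMM scaling, which corrects for differences in RNA composition, listed in the order of replicates 1, 2 and 3. Changes are log2 ratios of ABA over mock ± SE, and a gene was called at an adjusted p under 0.05 in edgeR's quasi-likelihood test. The mutation could be checked by PIF3, which stood at 1.99, 1.67 and 3.1 CPM in the pifq mock libraries and at 57.7, 55.9 and 71.2 CPM in the WT mock libraries. Counts for PIF1 and PIF4 do not fall that way: PIF1 stood at 90.7, 84.2 and 98.6 CPM in pifq mock and 38.2, 37.6 and 36.8 CPM in WT mock, and PIF4 at 75.2, 49.0 and 66.0 CPM and 29.8, 30.1 and 34.5 CPM. Counts over a whole gene do not show whether a transcript is intact, so the PIF1 and PIF4 values do not bear on the labels. The tissue is labelled only as seedlings, and markers of both root and shoot were present: mock libraries held 304 to 334 CPM summed over 11 endodermis markers of the root and 159.9 to 185 CPM over 13 stomatal markers of the shoot. In such bulk samples, fewer cells of a type and less RNA per cell cannot be told apart.

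ABA changed the abundance of 10132 of the 20828 genes tested, 48.6%. Of these, 5412 were higher, 26.0% of the genes tested, and 4720 lower, 22.7%. Counts of gene lists below are to be read beside these shares. At least 2-fold, 1582 (7.60%) rose and 2001 (9.61%) fell. The share of higher genes among the calls was 53.4% with TMM scaling and 35.9% with scaling by library totals alone, which moved the median of all genes by -0.144 on the log2 scale; the sizes below are relative to TMM scaling, and gene groups are set against a median of 0.03 for all genes tested.

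The genes that rose most included many known from maturing seeds. Among called genes that have a symbol, average 5 CPM or more and show no overlap between groups, the 10 highest were, in order, AtMT4a, CBSX4, PHE1, EM1, ATPXG2, ATS1, AtMT4b, OLEO1, LEA and KIN1, and they include seed metallothioneins (AtMT4a, AtMT4b), an embryo protein of the late embryogenesis type (EM1), caleosins of the oil body (ATPXG2, ATS1) and an oleosin (OLEO1). AtMT4a (AT2G42000) had no count in the mock libraries and 7.79, 11.7 and 12.5 CPM with ABA, at least 189-fold higher against a floor of 3 counts over the group. EM1 (AT3G51810) rose from 1.72, 0.863 and 0.310 to 296, 437 and 509 CPM, a log2 change of 8.70 ± 0.75 (adjusted p = 2.55e-08). PHE1 (AT1G65330), a MADS-box factor known from the endosperm, held 1 count in all mock libraries and 5.63, 10.8 and 25.2 CPM with ABA, a ratio of 727 with a 95% counting interval of 130 to 28769; replicate 1 was the lowest and replicate 3 the highest. KIN1 (AT5G15960), a cold- and ABA-induced gene with the close copy KIN2 that may share its reads, rose from 0.861, 0.755 and 0.683 to 103, 164 and 311 CPM.

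By the same rule the 10 genes that fell most were, from the lowest, AIR1, CRK30, CKX4, CYP735A2, UMAMIT17, SDR4, THAS1, DR4, CYP705A5 and EARLI1. AIR1 (AT4G12550), first described as auxin-induced in root cultures, fell from 39.6, 34.8 and 37.7 to 0.131, 0.0604 and 0.136 CPM, a log2 change of -8.34 ± 0.29 (adjusted p = 1e-14). THAS1 and CYP705A5 belong to the root gene cluster that makes the triterpene thalianol; their log2 changes were -5.34 ± 0.28 and -4.80 ± 0.49. UMAMIT17 (AT4G08300), of a family of amino acid transporters, fell from 25.5, 24.5 and 28.5 to 0.0655, 0.604 and 0.546 CPM. For each of the 10, the rule for naming them required every mock library to lie above every ABA library.

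The bases just before the annotated start of the 3 highest and 3 lowest of these genes are shown because ABF and ABI5 factors bind elements with an ACGTG core. Each sequence is the 250 bases upstream of the gene in the RefSeq annotation of TAIR10.1, 5′ to 3′ on the gene's strand, and capitals mark a motif on either strand: ACGTGT or its relative ACGTGG, both ABA-response elements, or the G-box CACGTG, which PIFs also bind and which overlaps the others where a G or T follows. OLEO1 was added after its motifs were counted.
AtMT4a, chr2:17530444-17530693, minus strand: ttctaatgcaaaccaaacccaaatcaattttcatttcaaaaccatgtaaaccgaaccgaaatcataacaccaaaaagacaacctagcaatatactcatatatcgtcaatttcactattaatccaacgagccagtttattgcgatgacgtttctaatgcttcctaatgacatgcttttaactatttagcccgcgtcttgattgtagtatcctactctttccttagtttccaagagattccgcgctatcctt
CBSX4, chr1:30129968-30130217, plus strand: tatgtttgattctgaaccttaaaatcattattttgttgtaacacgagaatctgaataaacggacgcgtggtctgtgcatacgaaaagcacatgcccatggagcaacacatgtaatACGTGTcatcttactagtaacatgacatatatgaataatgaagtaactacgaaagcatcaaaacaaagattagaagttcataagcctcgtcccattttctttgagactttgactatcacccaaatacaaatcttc
PHE1, chr1:24267337-24267586, minus strand: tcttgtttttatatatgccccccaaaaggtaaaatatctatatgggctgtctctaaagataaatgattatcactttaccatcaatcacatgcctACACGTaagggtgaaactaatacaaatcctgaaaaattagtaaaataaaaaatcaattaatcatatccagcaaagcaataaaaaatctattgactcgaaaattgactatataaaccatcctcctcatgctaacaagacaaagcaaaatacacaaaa
OLEO1, chr4:12900180-12900429, plus strand: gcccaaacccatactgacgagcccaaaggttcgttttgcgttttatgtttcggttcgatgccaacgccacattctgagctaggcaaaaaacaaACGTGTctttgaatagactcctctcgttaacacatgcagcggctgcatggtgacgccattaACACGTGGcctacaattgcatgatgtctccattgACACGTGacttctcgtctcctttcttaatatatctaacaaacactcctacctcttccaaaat
AIR1, chr4:7438865-7439114, plus strand: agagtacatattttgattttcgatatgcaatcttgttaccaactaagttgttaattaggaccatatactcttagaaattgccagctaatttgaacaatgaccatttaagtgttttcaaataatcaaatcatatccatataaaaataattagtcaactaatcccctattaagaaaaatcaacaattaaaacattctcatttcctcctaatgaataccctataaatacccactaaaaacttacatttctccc
CRK30, chr4:6963271-6963520, plus strand: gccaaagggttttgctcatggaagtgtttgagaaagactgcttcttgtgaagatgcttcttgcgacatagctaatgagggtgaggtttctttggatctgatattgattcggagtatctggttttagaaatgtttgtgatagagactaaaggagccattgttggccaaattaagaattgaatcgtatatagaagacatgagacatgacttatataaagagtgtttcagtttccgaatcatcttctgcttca
CKX4, chr4:14565933-14566182, plus strand: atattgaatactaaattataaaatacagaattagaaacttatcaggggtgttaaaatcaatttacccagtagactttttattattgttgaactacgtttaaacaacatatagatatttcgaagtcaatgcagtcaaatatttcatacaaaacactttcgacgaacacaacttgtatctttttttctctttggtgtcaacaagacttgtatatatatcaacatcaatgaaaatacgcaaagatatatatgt
CBSX4 and PHE1 each held 1 motif, OLEO1 held all 3 kinds, and AtMT4a, AIR1, CRK30 and CKX4 held none of them in this window. Of 20695 tested genes with such a window, 18.1% held at least 1 of the motifs. The share was 33.9% among the 1581 genes called and at least 2-fold higher, 16.3% among the 1996 called and at least 2-fold lower and 15.9% among the 10587 that were not called. ACGTGT alone was in 26.4% of the windows of the higher genes and in 11.4% of all windows. A match describes letters in the window and is not a measured binding site.

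**Figure D1:**
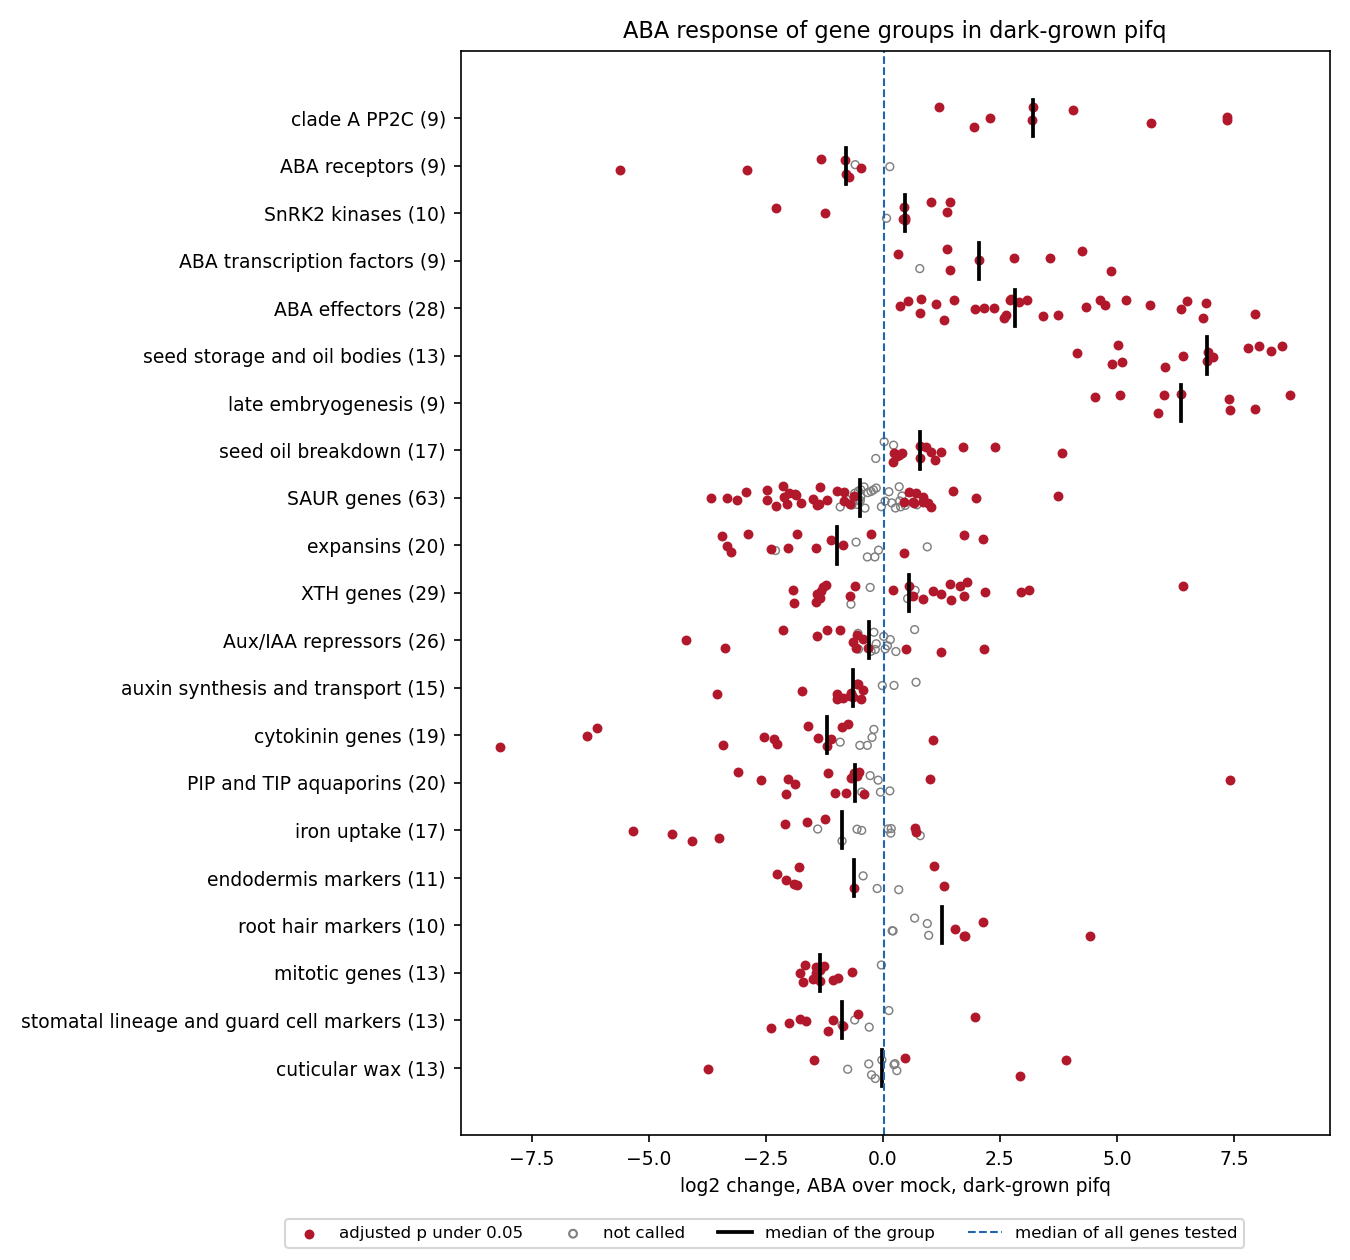
ABA response of gene groups in dark-grown pifq. Each point is a gene at its log2 change (ABA over mock, 3 libraries each), filled where called and open where not, with the number tested beside the group's name; black bars are group medians and the dashed line is the median of all genes tested. The medians of clade A PP2Cs and seed genes lie to the right of that line, and those of ABA receptors, cytokinin, mitotic, expansin and SAUR genes to its left. Points for genes with at most 3 counts in a group are fitted values, not bounds.

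Within the ABA signalling chain, the phosphatases rose and the receptors fell. All 9 clade A PP2Cs, the negative regulators of the chain, rose, against 26.0% of all genes tested called higher, and their median log2 change was 3.20. ABI1 went from 77.3, 72.6 and 97.4 CPM in mock to 399.7, 395 and 416 CPM with ABA (log2 change 2.29 ± 0.14, adjusted p = 4.29e-11). HAI2 went from 0.485, 0.324 and 1.06 to 97.5, 95.7 and 108 CPM and HAI3 from 1.02, 0.539 and 0.745 to 117, 106 and 161 CPM, log2 changes of 7.36 ± 0.32 and 7.36 ± 0.25. In these 3 genes the ABA libraries lay far above the mock libraries. The smallest change of the 9 was that of HAB2, 1.19 ± 0.11.

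Of 9 ABA receptors tested, 7 fell and none rose, against 22.7% of all genes called lower. PYL4 fell from 259, 255 and 289 to 33.8, 33.2 and 41.5 CPM, -2.89 ± 0.18 on the log2 scale (adjusted p = 8.37e-11), and PYL6 from 4.47, 4.15 and 8.50 to 0.262, 0.0604 and 0 CPM, -5.62 ± 0.59. PYL5, PYL1, PYL8 and PYR1 changed by -1.31, -0.81, -0.79 and -0.72. PYL9, called at -0.46 ± 0.15, lost its call without ABA replicate 1 or 2 or mock replicate 2 (adjusted p up to 0.092). PYL2 at -0.59 ± 0.26 and PYL7 at 0.15 ± 0.24 were not called. Summed over the receptors, the mock libraries held 519 to 573 CPM and the ABA libraries 175 to 198 CPM.

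Of the 10 genes of the whole SnRK2 kinase family, 7 rose and 2 fell. The number that rose was 4 without mock replicate 2. OST1, the kinase of the guard cell response, rose from 34.6, 34.1 and 32.7 to 81.9, 92.1 and 99.4 CPM (1.43 ± 0.11, adjusted p = 6.72e-10), while SNRK2.8 fell from 30.1, 29.1 and 27.7 to 7.01, 6.10 and 4.71 CPM (-2.28 ± 0.18). Of 9 ABA transcription factors, 8 rose. The seed factors moved furthest: ABI3 rose from 1.40, 1.24 and 2.23 to 31.1, 37.2 and 24 CPM, ABI4 from 0.646, 0.216 and 0.310 to 8.38, 14.6 and 12.5 CPM and ABI5 from 5.28, 5.23 and 5.03 to 43.7, 67.5 and 74.2 CPM, with log2 changes of 4.25 ± 0.48, 4.88 ± 0.67 and 3.57 ± 0.40. ABF1 at 0.79 ± 0.41 was the member not called (adjusted p = 0.121).

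**Figure D2:**
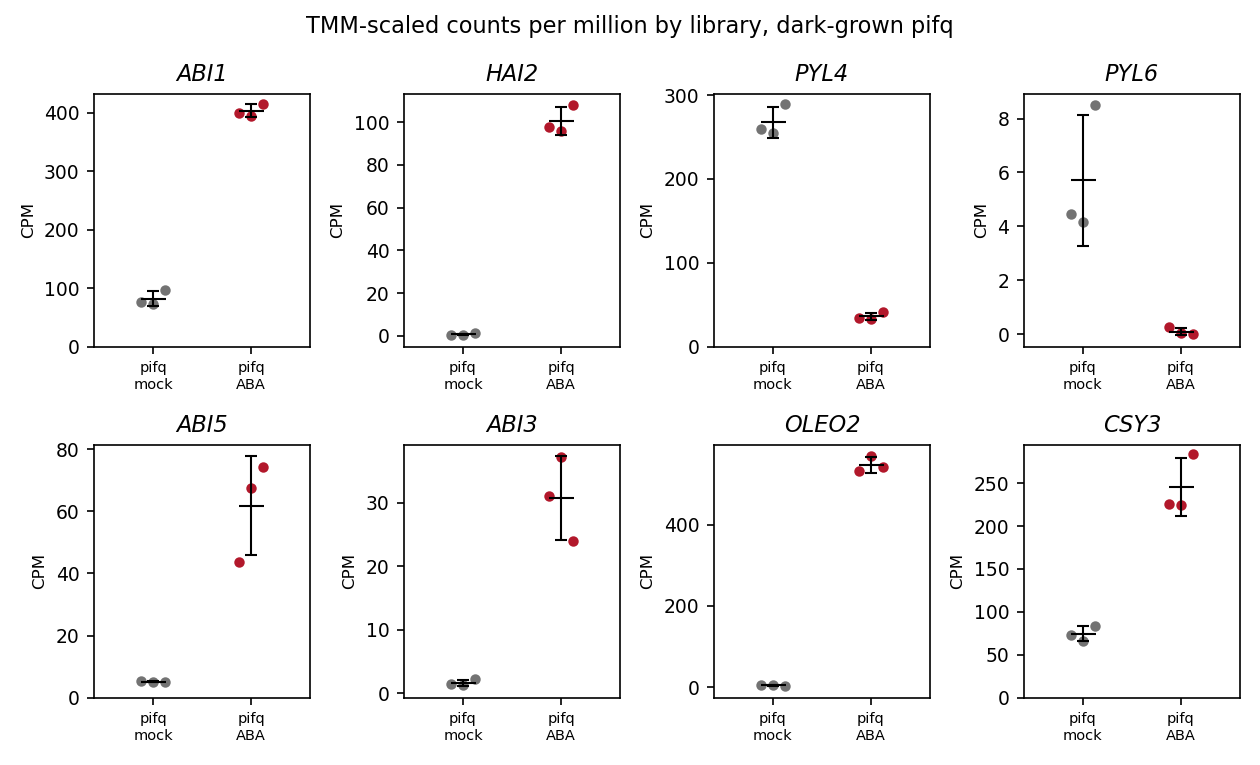
TMM-scaled CPM of 8 genes in the 3 mock and 3 ABA libraries of dark-grown pifq. Points are libraries and bars are mean ± SD; each vertical axis starts at 0. In each panel the mock and ABA libraries lie apart, with PYL4 and PYL6 lower and the other 6 genes higher with ABA.

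Enzymes that remove ABA rose with the hormone. CYP707A1, CYP707A2 and CYP707A4, ABA 8′-hydroxylases, went from 36.7, 36.1 and 56.0 to 301, 328 and 463 CPM, from 0.915, 0.701 and 0.869 to 25.2, 32.7 and 35.6 CPM and from 0.162, 0.0539 and 0.186 to 6.03, 5.98 and 6.0 CPM, log2 changes of 3.09, 5.22 and 5.43. ABA1, the zeaxanthin epoxidase of ABA synthesis, rose too, from 66.1, 53.9 and 46.9 to 178, 157 and 165 CPM. NCED3, the stress-induced rate-limiting synthesis enzyme, was not called, at 13.6, 13.3 and 24 CPM in mock and 12.4, 15.4 and 14.5 CPM with ABA (-0.26 ± 0.34, adjusted p = 0.547). In the list of synthesis and catabolism genes 10 of 14 rose and 1 fell, which lost its call without ABA replicate 2 or 3 or mock replicate 1 or 2. All 28 ABA effector genes, the known ABA-induced stress genes and co-regulators, rose, with a median of 2.82. Examples are ATHB7, a homeodomain factor (16.1, 16.2 and 21.8 to 193, 164 and 223 CPM), ADH1, alcohol dehydrogenase (20.5, 23.2 and 27.2 to 127, 131 and 167 CPM), and NAC019, a stress factor (0.538, 0.701 and 0.372 to 19.8, 17.3 and 23.3 CPM).

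The seed maturation genes rose as groups. All 13 seed storage and oil body genes tested and all 9 late embryogenesis genes rose, with median log2 changes of 6.92 and 6.36. OLEO2, an oleosin, stood at 5.28, 4.80 and 2.05 CPM in mock and 532, 569 and 541 CPM with ABA (7.06 ± 0.67, adjusted p = 8.71e-08), and the seed vacuole aquaporin TIP3;1 at 1.35, 1.94 and 0.869 CPM in mock and 268, 252 and 199 CPM with ABA. Summed over the storage and oil body list, mock libraries held 12 to 48.2 CPM and ABA libraries 3057 to 5277 CPM. The genes that use up seed oil, through fatty acid oxidation and the glyoxylate cycle, rose at the same time but less: 14 of 17 rose and none fell, with a median of 0.79. CSY3, a peroxisomal citrate synthase, went from 73.1, 66.4 and 84.0 to 226, 225 and 284 CPM and ICL, isocitrate lyase, from 609, 419 and 619.7 to 1738, 2669 and 4223 CPM.

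Against WT in the dark, 2376 genes, 11.4% of those tested, differed in their response to ABA by the test of the interaction, 1191 (5.72%) with a response that was higher in pifq and 1185 (5.69%) with a response that was lower. In dark-grown WT, ABA called 8385 genes, 40.3% of those tested, with 22.8% higher and 17.5% lower; this comparison dark shares no library with the pifq comparison. Of the WT calls, 5708 were also called in pifq in the same direction, which is 68.1% of them and 56.3% of the pifq calls, and 178 were called in opposite directions. All 178 passed the test of the interaction, 89 lower and 89 higher in pifq. That test takes the difference of the same 2 responses, so for genes chosen by opposite calls it is no separate support. A further 975 genes were called in pifq and not in WT and passed that test, 656 of them lower and 319 higher in pifq. The number that passed the interaction test depends on the libraries: it was 1530 without mock replicate 2 of pifq, 742 of them higher in pifq and 788 lower.

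In the signalling chain, the response differed between the genotypes for 2 of 9 clade A PP2Cs, 1 of 9 receptors, 1 of 10 SnRK2 kinases and 3 of 9 ABA transcription factors, beside 11.4% of all genes tested. Of the 3 factors, 2 had a response that was higher in pifq and 1 a lower response. The lower one lost its call in 8 of the 12 fits without single libraries. Both PP2Cs rose more in pifq: HAI2, whose WT levels were 3.73, 3.08 and 2.3 CPM in mock and 93.5, 96.7 and 127 CPM with ABA, differed by 2.25 ± 0.46 (adjusted p = 0.00348), and ABI2 by 0.94 ± 0.20. PYL4 changed by -1.58 in WT and fell further in pifq, a difference of -1.31 ± 0.24 (adjusted p = 0.00137). EEL, a seed bZIP factor, rose from 6.62, 5.72 and 4.78 to 26.8, 47.1 and 46.4 CPM in pifq and stood at 20.7, 23.6 and 20.2 CPM in mock and 36.0, 22.1 and 21.6 CPM with ABA in WT, a difference of 2.5 ± 0.56. ABF3 rose in both genotypes, more in pifq by 0.67 ± 0.20, and SNRK2.5 fell in pifq, -1.24 ± 0.27, and was not called in WT, a difference of -1.23 ± 0.37; these interactions lost their call in 7 and 9 of the 12 fits without single libraries (adjusted p up to 0.081 and 0.099). In the other 8 receptors the difference was not called, though their estimates reached -2.38, beyond that of PYL4.

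Among the mutated genes themselves, PIF1 and PIF3 differed in their response. PIF3 rose from 1.99, 1.67 and 3.1 to 16.6, 20.5 and 24.6 CPM in pifq, 3.20 ± 0.32, and from 57.7, 55.9 and 71.2 to 100.1, 107 and 149.9 CPM in WT, 0.95 ± 0.23, so that its response differed by 2.25 ± 0.40 (adjusted p = 0.00127); its level with ABA was still far under that of WT mock. PIF1 fell in pifq, to 59.8, 62.9 and 76.7 CPM (-0.46 ± 0.10), and rose in WT, from 38.2, 37.6 and 36.8 to 52.3, 55.0 and 57.2 CPM (0.55 ± 0.10), a difference of -1.0 ± 0.14 (adjusted p = 0.000129). PIF4 rose in both, by 1.28 in pifq and 1.15 in WT, and PIF5 by 0.91 and 0.53. Of the 8 PIF family genes tested 4 rose and 2 fell, PIF1 and PIL1; PIL1 lost its call without ABA replicate 1 or 3 or mock replicate 3 (adjusted p up to 0.193). Reads of a mutated gene need not come from a working transcript.

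Genes of cell elongation fell in dark-grown pifq, and several of them were not called in dark-grown WT. Of 20 expansins, proteins that loosen the cell wall, 11 fell and 3 rose, with a median of -0.98, while 7 fell and 4 rose in WT. EXPA8 stood at 133, 171 and 153 CPM in pifq mock and 15.9, 11.4 and 18.5 CPM with ABA, a log2 change of -3.32 ± 0.22 (adjusted p = 2.86e-10). In WT it stood at 143, 151 and 129 CPM in mock and 115, 195 and 183 CPM with ABA, so the groups overlapped there, and the responses differed by -3.54 ± 0.29 (adjusted p = 4.82e-07). EXPA1 fell from 124, 139 and 124 to 27.7, 20.7 and 26.0 CPM in pifq and stood at 67.7, 63.8 and 37.3 CPM in mock and 50.0, 49.5 and 52.5 CPM with ABA in WT, a difference of -2.23 ± 0.22. Of the list, 8 responses were lower in pifq and 3 higher.

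Other wall enzymes were split. XTH4, a xyloglucan endotransglucosylase, fell from 763, 921 and 874 to 335, 317 and 408 CPM, with 556, 482 and 625 CPM in mock and 426, 698 and 732 CPM with ABA in WT and a difference of -1.43 ± 0.21 (adjusted p = 0.000209). XTH25 rose from 0.431, 0.647 and 0.248 to 46.8, 38.3 and 32.2 CPM, 6.42 ± 0.46, and over the XTH list 15 of 29 rose and 10 fell. The pectin methylesterases PME61 and ATPMEPCRD, which change the stiffness of pectin, were among the 5 lowest interactions of genes that have a symbol and average 5 CPM or more: ATPMEPCRD fell from 156, 178 and 208 to 4.19, 9.0 and 9.75 CPM in pifq and stood at 443, 402 and 528 CPM in mock and 228, 481 and 408 CPM with ABA in WT, a difference of -4.26 ± 0.37. PME61 fell from 8.94, 16.4 and 11.7 to 1.83, 2.42 and 2.52 CPM in pifq and rose from 8.42, 7.5 and 9.52 to 22.4, 57.1 and 61.8 CPM in WT, a difference of -4.92 ± 0.46 (adjusted p = 2.02e-06).

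Auxin genes were mostly lower or not called. Of 15 genes of auxin synthesis and transport 12 fell and none rose; the number that fell was 7 without mock replicate 3. ABCB19, an auxin exporter of the hypocotyl, fell from 274, 297 and 272 to 143, 145 and 142 CPM, -0.97 ± 0.09, against 285, 256 and 252 CPM in mock and 268, 333 and 270.1 CPM with ABA in WT, a difference of -1.11 ± 0.13 (adjusted p = 1.4e-05). The Aux/IAA genes encode auxin-induced repressors, and 11 of 26 fell while 3 rose. IAA19, induced by auxin and by PIFs, fell from 9.21, 12.7 and 13.3 to 0.982, 0.907 and 1.5 CPM in pifq, -3.37 ± 0.36, and stood at 47.5, 37.5 and 48.0 CPM in mock and 30.1, 44.3 and 34.3 CPM with ABA in WT, a difference of -3.08 ± 0.45 (adjusted p = 0.000205). IAA6 went from 1.94, 2.75 and 2.92 to 0.131, 0.121 and 0.136 CPM, -4.21 ± 0.39, with a difference of -4.38 ± 0.46 from WT.

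SAUR genes, small auxin-up RNAs whose products promote cell expansion by blocking PP2C.D phosphatases and so activating proton pumps, moved in both directions. Of 63 tested, 24 fell and 12 rose, beside 22.7% of all genes tested called lower and 26.0% higher. The median was -0.48. SAUR19 to SAUR24 are close copies whose reads may be shared. SAUR16 fell from 7.97, 10.2 and 7.08 to 1.38, 0.907 and 1.09 CPM (-2.91 ± 0.32, adjusted p = 3e-07) and SAUR3 from 2.96, 4.53 and 3.29 to 0.720, 0.604 and 0.887 CPM (-2.28 ± 0.34). In WT SAUR16 stood at 13.9, 11.1 and 10.0 CPM in mock and 6.15, 10.4 and 11.1 CPM with ABA, a difference of -2.55 ± 0.40, and SAUR3 differed by -2.21 ± 0.49. SAUR74 rose from 0.754, 0.809 and 0.869 to 5.89, 11.1 and 15.8 CPM, 3.74 ± 0.33. In the interaction 6 SAUR responses were lower in pifq and 10 higher, the latter 5 without pifq mock replicate 2 and 6 without WT ABA replicate 3. SAUR37 had the smallest adjusted p of these (7.98e-05), falling from 4.48, 4.31 and 4.48 to 0, 0 and 0.128 CPM in WT against 2.15, 2.05 and 4.34 to 1.11, 2.18 and 0.955 CPM in pifq.

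The downstream partners of the SAUR proteins had median log2 changes of 0.12 (PP2C.D genes) and 0.18 (proton pumps), against 0.03 for all genes tested. Of 9 PP2C.D genes 4 rose and none fell, beside 26.0% of all genes tested called higher and 22.7% lower. The largest change was that of PP2C.D7, 1.40 ± 0.19. Of 9 plasma membrane proton pumps 4 rose and 1 fell: HA2 went from 938, 945 and 1236 to 639, 658 and 789.5 CPM and HA11 from 116, 121 and 109 to 194, 195 and 189 CPM. With scaling by library totals 3 PP2C.D genes were called higher and 2 lower, and 3 pumps higher and 1 lower.

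**Figure D3:**
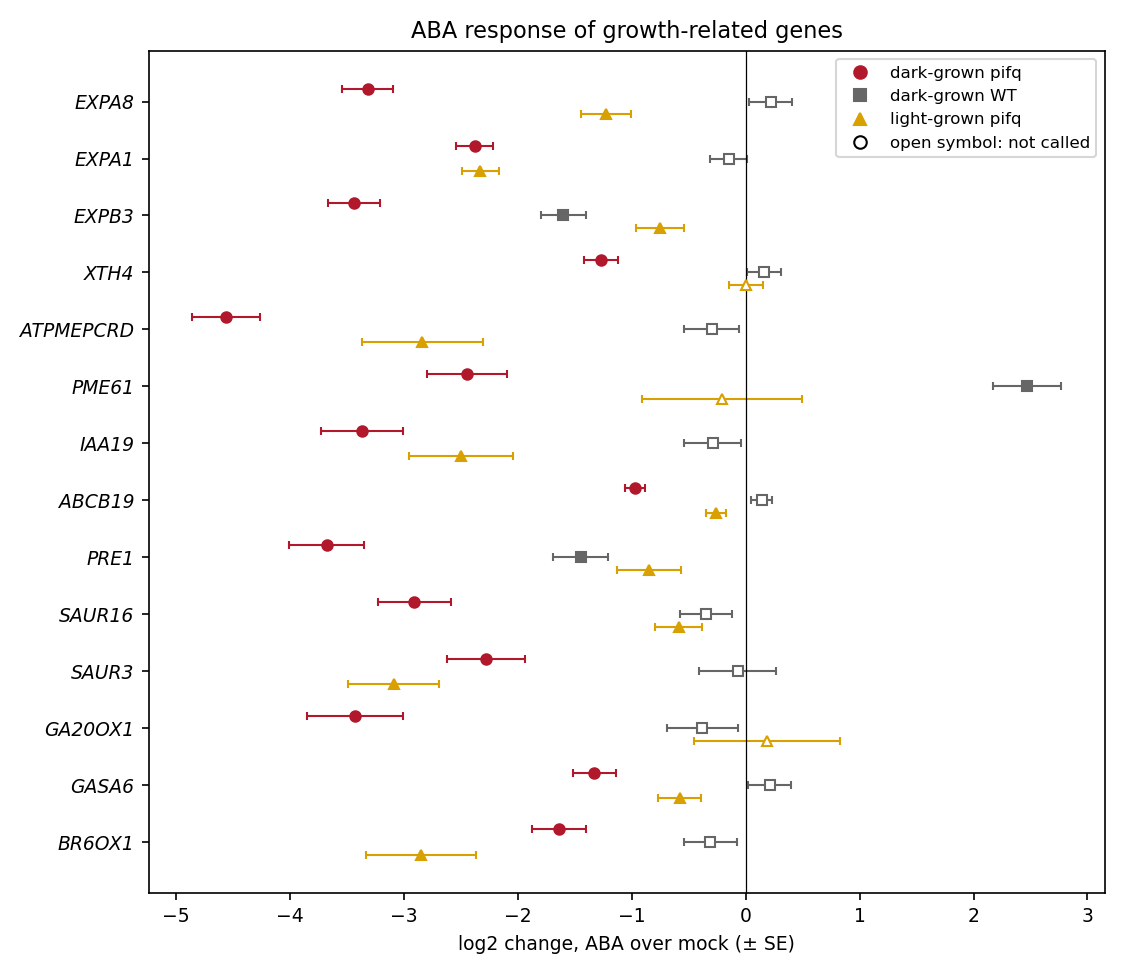
ABA response of growth-related genes. The horizontal axis is the log2 change (ABA over mock) ± SE for dark-grown pifq (circles), dark-grown WT (squares) and light-grown pifq (triangles), from 3 libraries a group; open symbols were not called. For EXPA8, EXPA1, XTH4, IAA19, ABCB19, SAUR16, SAUR3, GA20OX1 and GASA6 the dark pifq change is called lower while the dark WT change is not called.

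Of the genes of the other growth hormones, some fell and some rose. GA20OX1, a gibberellin synthesis enzyme, fell from 4.09, 5.66 and 7.26 to 0.131, 0.544 and 0.887 CPM, -3.43 ± 0.42, and differed from WT, at 8.22, 6.52 and 8.85 CPM in mock and 3.27, 7.59 and 7.37 CPM with ABA, by -3.05 ± 0.53 (adjusted p = 0.000803). The DELLA genes RGL2 and RGL3, repressors of gibberellin responses, rose from 6.51, 6.47 and 8.44 to 30.5, 41.5 and 33.3 CPM and from 9.69, 10.2 and 8.81 to 24.4, 32.2 and 33.3 CPM. Over the gibberellin list 6 of 19 rose and 7 fell, beside 26.0% of all genes tested called higher and 22.7% lower. The number that rose was 3 without mock replicate 2. The number that fell was 4 without ABA replicate 1 or mock replicate 3. BR6OX1, of brassinosteroid synthesis, fell from 8.56, 13.9 and 9.31 to 2.16, 3.20 and 4.84 CPM, and 5 of 13 brassinosteroid genes fell and none rose. PRE1 and PRE5, growth-promoting helix-loop-helix factors in the list of PIF-induced genes, fell from 7.59, 9.28 and 7.45 to 0.589, 0.483 and 0.818 CPM and from 1.29, 1.29 and 1.55 to 0.131, 0.0604 and 0.273 CPM; the differences of their responses from WT were -2.23 ± 0.43 and -3.43 ± 0.72. Of that list 7 of 15 fell, 4 without mock replicate 3, and 2 rose. The log2 changes in the list ran from -3.68 to 1.74. Summed over the list the level was higher with ABA, at 434 to 588 CPM against 247 to 387 CPM in mock.

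Cytokinin genes fell. Of 19 tested, 13 fell and 1 rose, with a median of -1.20. CYP735A2, which makes trans-zeatin in roots, fell from 31.0, 28.8 and 44.7 to 0.589, 0.363 and 0.546 CPM (-6.11 ± 0.28, adjusted p = 7.86e-13), and CYP735A1, its close relative, from 121 counts over the mock group to none, at least 35.2-fold lower. CKX4, which breaks cytokinin down, fell from 13.0, 12.5 and 12.5 to 0.131, 0.242 and 0.0682 CPM. The response regulators ARR4, ARR5 and ARR6, which cytokinin induces, fell, with log2 changes of -1.11, -2.25 and -1.39; in WT the changes were -2.08, -2.66 and -2.78, and ARR6 fell less in pifq by the interaction, 1.39 ± 0.26 (adjusted p = 0.0013). In WT 16 of the list fell. Of 16 ethylene and hook genes 3 rose and 4 fell; ACS2, an enzyme of ethylene synthesis, rose from 1.62, 1.51 and 2.17 to 5.63, 5.02 and 4.91 CPM.

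Root hair genes rose in pifq and fell in WT: of 10 markers 5 rose and none fell in pifq, while 9 fell and none rose in WT, and 9 differed by the interaction. PRP1, a cell wall protein of root hairs, went from 0.323, 0.216 and 1.49 to 6.03, 20.3 and 15.9 CPM in pifq (4.43 ± 0.63, adjusted p = 1.14e-05) and stood at 0.946, 0.514 and 1.74 CPM in mock and 0.554, 0 and 0.128 CPM with ABA in WT. EXPA18, an expansin of root hairs, rose from 0.700, 0.863 and 2.42 to 1.83, 8.70 and 6.55 CPM in pifq and fell from 3.69, 2.82 and 5.09 to 0.0554, 0 and 0.192 CPM in WT, a difference of 7.60 ± 0.93 (adjusted p = 4.12e-05). That WT level with ABA is near the floor, so the size is loosely set, at 7.06 to 8.85 without single libraries. For EXPA7 and COBL9 the differences were 3.87 ± 0.63 and 3.88 ± 0.55. The list's median difference was 3.88, against -0.01 for all genes tested. The libraries within a group were uneven: for PRP1, EXPA18, EXPA7, COBL9 and LRX1, ABA replicate 1 was the lowest of its group and mock replicate 3 the highest, and for EXPA18, EXPA7 and LRX1 the groups overlapped at those libraries. LRX1, at 7.21, 7.71 and 14.1 CPM in mock and 8.71, 28.0 and 20.0 CPM with ABA, was not called in pifq (0.98 ± 0.41, adjusted p = 0.0558) and fell in WT, -4.03 ± 0.52.

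**Figure D4:**
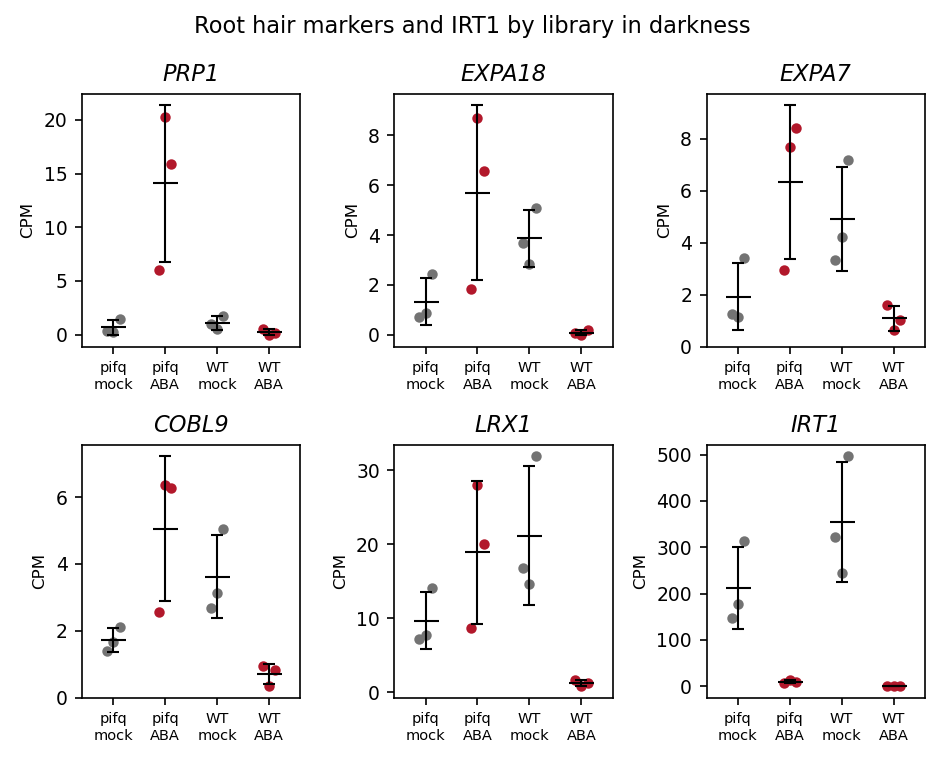
Root hair markers and IRT1 by library in darkness, in TMM-scaled CPM on axes that start at 0. Points are the 3 libraries of each group (grey for mock, red for ABA) and bars are mean ± SD. The 5 root hair markers are at or under 1.72 CPM in the WT libraries with ABA, and IRT1 falls in both genotypes.

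Iron uptake genes of the root epidermis fell in both genotypes. IRT1, the iron importer, fell from 147, 178 and 313 to 6.42, 13.0 and 8.39 CPM in pifq, -4.51 ± 0.40 (adjusted p = 3.8e-08), and from 323, 245 and 497 to 0.775, 0.0598 and 0.128 CPM in WT, a difference of 5.5 ± 0.78 (adjusted p = 0.00021). FRO2, the ferric reductase, fell from 62.2, 85.4 and 136 to 3.80, 7.55 and 5.39 CPM, with a difference of 1.69 ± 0.48, and their regulator FIT1 from 22.4, 21.4 and 42.5 to 1.44, 2.18 and 4.02 CPM, with a difference of 0.99 ± 0.57 that was not called. Over the list 7 of 17 fell and 2 rose; without ABA replicate 1 or 2 or mock replicate 2 or 3, 1 rose. Among the genes the naming rule admitted, IRT1 was 1 of the 5 highest interactions, and the others were AGP30, BGLU35, EXPA17 and BGLU34. All 5 fell in both genotypes, and further in WT. AGP30, a root arabinogalactan protein, stood at 132, 108 and 175 CPM in pifq mock and 19.3, 76.0 and 12.5 CPM with ABA, where replicate 2 was far above the others, and fell from 163, 170.2 and 175 to 1.55, 0.0598 and 0.0641 CPM in WT. EXPA17, a root expansin, fell from 22.4, 19.5 and 26.9 to 1.44, 4.47 and 1.23 CPM in pifq and from 2151 counts over the WT mock group to 3 with ABA. BGLU34, a beta-glucosidase, fell from 28.4, 24.3 and 37.7 to 4.45, 15.4 and 9.07 CPM in pifq and from 47.4, 28.7 and 35.5 to 0.388, 0.0598 and 0.128 CPM in WT. BGLU34 and BGLU35 are close copies whose reads may be shared.

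Genes of the Casparian strip, the barrier of the root endodermis, fell. The Casparian strip proteins CASP1, CASP2 and CASP4 fell: CASP1 from 59.1, 61.6 and 67.5 to 12.1, 23.4 and 14.7 CPM, CASP2 from 26.1, 30.6 and 32.6 to 5.63, 10.8 and 4.71 CPM and, for CASP4, by a log2 change of -2.25; ABA replicate 2 was the highest of its group for each. The fall was larger than in WT for CASP2, -1.47 ± 0.41, and CASP4, -1.69 ± 0.44 (adjusted p = 0.0265 and 0.0166). Of 11 markers 6 fell and 2 rose. The interaction was lower in pifq for 2 markers and higher for 3, and without single libraries for 1 to 4 and 1 to 3. CYP86A1, of suberin synthesis, was not called in pifq, at 8.83, 7.66 and 9.56 CPM in mock and 15.4, 11.0 and 6.41 CPM with ABA, and fell in WT from 16.8, 15.5 and 16.3 to 2.88, 1.97 and 0.961 CPM, a difference of 3.38 ± 0.61 (adjusted p = 0.00147). Among aquaporins of the plasma membrane and vacuole 13 of 20 fell and 2 rose, TIP3;1 and PIP2;5. PIP2;4 fell from 66.1, 64.0 and 103 to 6.94, 11.9 and 8.39 CPM, -3.09 ± 0.38, with a difference from WT of -2.05 ± 0.49 (adjusted p = 0.011). NIA1, nitrate reductase, fell from 589.5, 665 and 687 to 377, 327 and 145 CPM and differed from WT, at 221, 225 and 247 CPM in mock and 356, 208 and 291 CPM with ABA, by -1.49 ± 0.36. Nitrate genes as a list gave 2 higher and 3 lower of 11, beside 26.0% and 22.7% of all genes tested, with 1 to 4 higher without single libraries.

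Cell division genes fell. Of 13 mitotic genes 12 fell and none rose, with a median of -1.35, against 9 that fell in WT. AUR1, the Aurora kinase, fell from 9.74, 9.71 and 12.2 to 2.42, 3.38 and 3.41 CPM (-1.77 ± 0.20, adjusted p = 3.59e-07) and KN, the syntaxin of the cell plate, from 15.1, 17.8 and 16.9 to 5.70, 6.95 and 4.91 CPM. The interaction was called lower for 4 of them, but for 0 without WT ABA replicate 3 or pifq ABA replicate 1, and for 0 to 5 over all libraries left out.

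Stomatal genes fell in pifq. Of 13 markers 8 fell and 1 rose, against 2 and 2 in WT. SPCH, the factor that starts the lineage, fell from 13.1, 11.5 and 14.3 to 3.21, 4.17 and 3.96 CPM (-1.77 ± 0.19, adjusted p = 1.49e-07). KAT1, a guard cell potassium channel, fell from 28.9, 34.4 and 36.1 to 6.75, 7.61 and 10.4 CPM in pifq and rose from 7.87, 7.39 and 13.0 to 13.1, 13.1 and 15.5 CPM in WT, a difference of -2.57 ± 0.25 (adjusted p = 1.77e-06). GORK, the outward channel, rose from 12.4, 13.8 and 15.2 to 43.6, 47.1 and 70.4 CPM. The interaction was called lower for 5 markers, but for 1 without WT ABA replicate 3 or WT mock replicate 1, and for 1 to 4 over all libraries left out.

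Wax genes rose in WT and mostly did not in pifq. In WT 11 of 13 genes of cuticular wax synthesis and export rose and none fell; in pifq 3 rose and 2 fell, and the interaction was lower for 8 and higher for 1. WSD1, the wax ester synthase, stood at 2.8, 4.75 and 1.06 CPM in pifq mock and 2.16, 1.69 and 1.30 CPM with ABA, which overlap, and rose from 5.33, 4.21 and 3.58 to 27.0, 50.4 and 33.6 CPM in WT, a difference of -3.83 ± 0.53 (adjusted p = 0.000133). CER1, of alkane synthesis, was the member that rose more in pifq, from 18.6, 18.7 and 14.6 to 252, 249 and 280.0 CPM against 256, 265 and 162 to 577, 873 and 834 CPM in WT, a difference of 2.16 ± 0.26. Its levels in pifq lay below those in WT in both treatments. KCS2 rose in both genotypes, by 2.93 and 2.53. Without mock replicate 2 the wax genes that rose in pifq numbered 5.

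**Figure D5:**
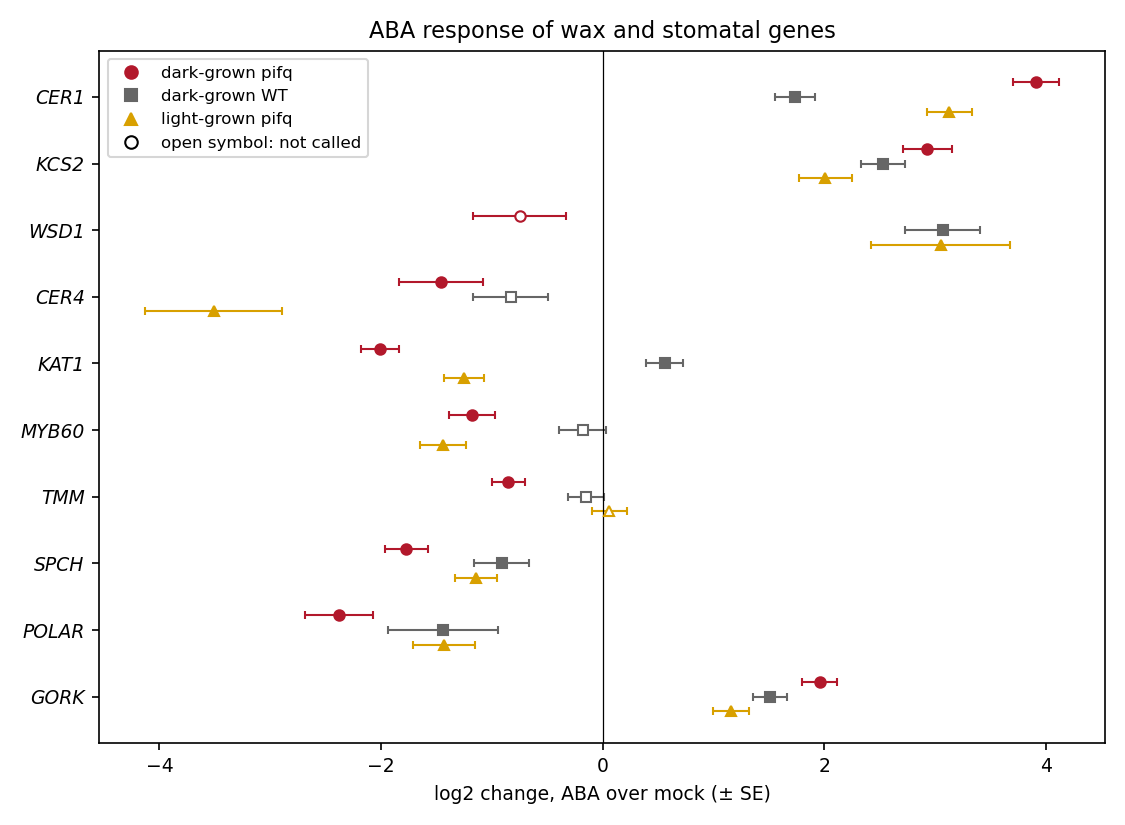
ABA response of wax and stomatal genes. The horizontal axis is the log2 change (ABA over mock) ± SE in dark-grown pifq (circles), dark-grown WT (squares) and light-grown pifq (triangles), 3 libraries a group; open symbols were not called. WSD1 and KAT1 have opposite signs in dark-grown pifq and dark-grown WT, and KCS2 and GORK are higher in all of the 3 comparisons.

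Few nuclear genes of photosynthesis changed in the dark. Of 48 nuclear photosystem, antenna and Rubisco genes 5 rose and 4 fell, a smaller share than the 48.6% of all genes called, and the number that rose was 1 to 7 without single libraries. The small-subunit genes of Rubisco fell: RBCS1B went from 170.2, 212 and 159 to 16.7, 28.1 and 28.4 CPM and RBCS3B from 781, 835 and 874 to 359, 323 and 409 CPM, close copies whose reads may be shared. Of 16 chlorophyll synthesis genes 4 fell, a share near the 22.7% of all genes called lower, and none rose, and 2 fell without ABA replicate 1 or mock replicate 2 or 3; CHLI2 fell from 33.8, 34.5 and 42.7 to 25.5, 23.1 and 25.6 CPM. Of 16 light signalling regulators 3 rose and 1 fell; without mock replicate 2, 1 rose and none fell. Chloroplast-encoded transcripts, poorly caught by polyadenylated RNA, gave 16 lower and 5 higher of 96, and 7 to 41 lower without single libraries, with the highest number without ABA replicate 1 and the lowest without mock replicate 3. Of 36 mitochondria-encoded genes 2 rose and 1 fell; without single libraries 0 to 3 rose and 0 to 2 fell.

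Genes of chlorophyll breakdown and dark starvation moved in both directions. SGR1 and PAO, enzymes of chlorophyll degradation, rose from 11.1, 10.7 and 10.1 to 24.3, 29.0 and 30.0 CPM and from 37.4, 38.1 and 35.0 to 102, 81.5 and 78.3 CPM. DIN10, induced by darkness and sugar shortage, fell from 800.1, 589 and 664 to 231, 175 and 159.5 CPM (-1.86 ± 0.20, adjusted p = 1.99e-07). BGLU30, also induced by darkness and sugar shortage, rose from 91.7, 57.4 and 57.6 to 159, 107 and 144 CPM (0.99 ± 0.23, adjusted p = 0.00162). In that list 6 of 15 rose and 3 fell, beside 26.0% of all genes tested called higher and 22.7% lower. PAP1, a MYB activator of anthocyanin synthesis, rose from 0.162, 0 and 0.0621 to 2.42, 2.54 and 4.23 CPM and differed from WT by 3.19 ± 0.98 (adjusted p = 0.0379). Of 10 flavonoid genes 6 rose, but 2 without ABA replicate 2 and 3 without mock replicate 2. TT4, chalcone synthase, stood at 8.67, 7.60 and 7.45 CPM in mock and 8.71, 22.7 and 10.9 CPM with ABA, where replicate 2 alone was clearly higher. Among heat shock genes 1 of 6 rose, HSP22.0, from 0.162, 0.485 and 0.559 to 3.67, 6.41 and 9.48 CPM, with 5.78, 8.37 and 4.20 CPM in mock and 7.36, 8.84 and 3.33 CPM with ABA in WT. Of 9 cellulose synthases 4 fell and 1 rose, beside 22.7% and 26.0% of all genes tested. CESA4, CESA7 and CESA5 fell, with log2 changes of -0.93, -0.91 and -0.62, and CESA1 rose from 597, 626 and 588 to 877, 868 and 834 CPM. GH3 hormone-conjugating enzymes gave 2 lower and 1 higher of 8, but 1 lower and none higher without ABA replicate 1, 1 lower without mock replicate 3 and 2 higher without mock replicate 1, with GH3.17 falling from 61.2, 61.5 and 75.7 to 21.7, 25.9 and 31.6 CPM.

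Set beside light-grown pifq, the dark response differed for 3888 genes, 18.7% of those tested, by the test of the interaction; 2009 (9.65%) were higher and 1879 (9.02%) lower in the dark. With only the dark and light pifq libraries in the fit 2845 differed, of which 36.0% were higher. The conditions differ in light, in age at transfer and in days on ABA, whose parts cannot be told apart. The difference was called for no seed storage, oil body or late embryogenesis gene, which does not show that these responses were equal. For the storage and oil body list the median difference was -1.63, with members from -5.47 to 1.44. Its light ABA libraries were uneven, at 922 to 5507 CPM summed. The late embryogenesis list had a median of 0.43, with members from -2.33 to 1.15. Among the clade A PP2Cs the difference was called for 1. HAI1 rose by 4.06 in the dark and 5.13 in the light (difference -1.07 ± 0.29, adjusted p = 0.0151), a call lost without light mock replicate 2 (adjusted p = 0.053). NCED3, not called in the dark, rose in the light from 9.18, 4.98 and 7.13 to 42.2, 53.9 and 84.1 CPM, a difference of -3.34 ± 0.49 (adjusted p = 0.000187). ICL rose in both, in the light from 28.0, 13.5 and 9.39 to 758, 1903 and 453 CPM, a difference of -3.54 ± 0.79.

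Several growth genes fell further in the dark than in the light. EXPB3, an expansin, changed by -3.44 in the dark and -0.75 in the light (difference -2.69 ± 0.31, adjusted p = 9.64e-06), and SAUR16 by -2.91 and -0.59 (difference -2.31 ± 0.39). XTH4 stood at 354, 369 and 406 CPM in mock and 392, 357 and 376 CPM with ABA in the light, with a difference of -1.27 ± 0.21. GA3OX1, a gibberellin synthesis enzyme, changed by -0.81 in the dark and 2.14 in the light, a difference of -2.94 ± 0.44. The aquaporin PIP1;3 fell in the dark and rose in the light, from 505, 429.7 and 596 to 570.0, 672 and 748 CPM, a difference of -1.55 ± 0.19 (adjusted p = 1.43e-05), and 9 of 20 aquaporins were lower in the dark by this test and none higher. EXPA1 also fell in the light, -2.33 ± 0.16, with a difference of -0.05 ± 0.22, and IAA19 too, -2.5 ± 0.46, with a difference of -0.87 ± 0.67; neither difference was called. MAH1, a wax hydroxylase, fell from 3.12, 6.09 and 1.37 to 0.131, 0.302 and 0.341 CPM in the dark, while in the light it had no count in mock and 9 with ABA, at least 3.60-fold higher.

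The largest differences between dark and light, among pifq genes chosen by the same rule of symbol and level, were of varied kinds. FRK1, a receptor kinase that marks the response to bacterial flagellin, changed by 2.19 in the dark, from 0.808, 0.701 and 1.30 to 4.00, 4.53 and 4.23 CPM, and by -2.18 in the light, from 14.5, 19.9 and 13.6 to 3.83, 4.06 and 2.66 CPM, a difference of 4.37 ± 0.42 (adjusted p = 1.01e-06). UP6 stood at 0, 0.162 and 0.0621 CPM in mock and 9.56, 11.0 and 11.5 CPM with ABA in the dark and 1.95, 1.55 and 3.28 CPM in mock and 11.6, 15.5 and 9.52 CPM with ABA in the light, a difference of 4.56 ± 0.69. Its dark mock level is near the floor, so the size of that difference is loosely set. PP2-A5, of a phloem lectin family, stood at 1.02, 1.51 and 1.30 CPM in mock and 0, 0.181 and 0.136 CPM with ABA in the dark and went from 881 counts over the light mock group to 2 with ABA; its difference lost the call without dark ABA replicate 2 (adjusted p = 0.076). In the other direction, PA2, a peroxidase, stood at 4.15, 5.12 and 2.67 CPM in mock and 2.16, 2.3 and 2.32 CPM with ABA in the dark and rose from 1.76, 1.1 and 1.46 to 16.3, 20.0 and 21.0 CPM in the light, a difference of -4.54 ± 0.40. JRG21, a jasmonate-regulated oxygenase, stood at 4.25, 3.18 and 1.86 CPM in mock and 2.82, 1.87 and 1.7 CPM with ABA in the dark and 3.14, 4.72 and 4.00 CPM in mock and 32.4, 35.4 and 31.1 CPM with ABA in the light, a difference of -3.61 ± 0.37 (adjusted p = 2.15e-06).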

How the data were processed

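Polyadenylated RNA of seedlings was sequenced from stranded libraries as 100-base paired ends on a DNBSEQ instrument, per the labels' protocols. Per the submitters' processing notes, the tools were STAR, SAMtools, FastQC and DESeq2 on the build TAIR10, without versions; the sources used here do not give the counting program or its strand setting, so reads of a gene and its antisense partner may not be told apart. The deposited table holds raw read counts per gene, as the authors made them, for 24 libraries of 13722850 to 17538529 counts and 32833 genes, of which 4822 are 0 throughout. Of the genes, 32548 matched RefSeq's TAIR10.1 annotation; the other 285, largely organelle genes, held 0.775% of the counts. Of the table's columns with values per sample, 0 were left unused.

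Groups came from the labels. Genes were kept by filterByExpr and scaled by TMM, and 1 model with a term for each of the 8 groups was fitted to all 24 libraries with edgeR 4.0.16 (robust quasi-likelihood, R 4.3.3, limma 3.58.1), with 16 residual degrees of freedom and a median biological coefficient of variation of 0.109. p-values were two-sided, adjusted by Benjamini-Hochberg over 20828 genes, and called under 0.05. The scripts were tested on simulated counts. In the smallest of the 6 pifq dark libraries 3 counts, the floor used for genes with no count, are 0.202 CPM. Ratios on 1 to 3 counts have exact 95% intervals that cover counting error only. The labels call the replicates biological, but whether they were grown apart is not stated. The p-values set a change against the spread between libraries of a group, estimated over all 8 groups, and so speak for these samples.

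The comparison and the 40 gene lists (967 entries matched, 5 left out for annotation reasons) were chosen with earlier results of these data known, and lists and their medians are described without a test. Named genes were the 10 highest and 10 lowest responses in dark-grown pifq, the 5 highest and 5 lowest interactions with genotype and the 3 highest and 3 lowest with light, each called, with a symbol and a mean of at least 5 CPM; from each list, up to 4 members of lowest p and up to 2 of lowest p in each interaction; and every ABA receptor, clade A PP2C, SnRK2 kinase, ABA transcription factor and PIF. Windows of 250 bases came from the TAIR10.1 genome, since no promoter table was used. The alternatives were other scalings, no filter, DESeq2 1.42.0, a replicate block, fits of the compared libraries alone and each library left out.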

Additional observations from a re-analysis of the deposited data

Results flagged for a closer look

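Some responses of dark-grown pifq differed from those of another group by the test of the interaction. Given here are the genes at either end of that difference, among called genes that have a symbol and average 5 CPM or more. Against dark-grown WT, the response in pifq was the lower, with log2 differences of -4.92 for PME61, -4.48 for UMAMIT17, -4.26 for ATPMEPCRD, -3.83 for WSD1 and -3.54 for EXPA8. It was the higher, with differences of 5.5 for IRT1, 5.86 for BGLU34, 6.03 for BGLU35 and 6.21 for AGP30, and for EXPA17, with 3 counts over the WT libraries with ABA, the adjusted p of the difference was 0.000367.

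Against light-grown pifq, the response in the dark was the lower, with differences of -4.54 for PA2, -3.61 for JRG21 and -3.54 for ICL, and the higher, with 4.37 for FRK1 and 4.56 for UP6. UP6 stood near the floor in the dark mock libraries. For PP2-A5, with 2 counts over the light libraries with ABA, the adjusted p of the difference was 0.00554. Light, age at transfer and days on ABA cannot be told apart in these.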

How the results depend on the processing

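The number of genes called for ABA in dark-grown pifq ranged from 8776 to 9362 when each library was left out, with 4646 to 5090 higher and 4130 to 4301 lower. It was 9972 with RLE scaling, 9979 with library totals, 9921 with no filter, 9938 with DESeq2 and 8885 with the compared libraries alone. Library totals left 3585 higher, and 3583 genes were called and at least 2-fold changed. The interaction with genotype gave 1530 to 2729 genes without single libraries (742 to 1501 higher, 788 to 1246 lower), the fewest without pifq mock replicate 2, and 2756 with DESeq2. The interaction with light gave 2817 to 3800 (1384 to 2014 higher, 1433 to 1923 lower); with the compared libraries alone 1023 were higher, and 1111 with the replicate block as well. The replicate block gave 10421, 2648 and 4216 calls with all 24 libraries and 9754, 2717 and 2972 with the compared ones. Same-numbered ABA and mock libraries of dark-grown pifq correlated at 0.23, -0.03 and 0.19 in their deviations from group means. Against same-numbered WT libraries, pifq mock correlated at 0.13, 0.15 and 0.32 and pifq ABA at 0.25, 0.03 and 0.29. WT ABA against WT mock gave 0.09, 0.01 and 0.24. All 3 pairs passed 0.1 for the mocks of both genotypes alone, and not every pair did in either comparison, so the numbers were not taken to pair the libraries. Over named genes, 2271 values kept their side of the threshold under these settings, 68 lost the call and 6 gained it; without single libraries the numbers were 2557, 254 and 3. No called change reversed, and 12 values of 4 changes that were not called did. The causes were not tested. At these depths a gene under 0.202 CPM rests on 3 counts or fewer.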
